A study of Mus musculus with 25 samples.

Results

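Of the 25 arrays of a mouse mammary tumour study, 19 were compared here: 7 tumours that the labels call spindloid, a spindle-shaped histology, and 12 tumours with any other stated pathology except intermediate, which are called carcinomas below. MicroRNAs (miRNAs) were measured in total RNA of snap-frozen tissue from female FVB mice on one-colour Agilent arrays, with Cy3 as the dye. The spindloid tumours were 1 MMTV-Met tumour (Met), 3 MMTV-Met;Trp53fl/+ tumours (MetTrp53) and 3 Trp53fl/+ tumours (Trp53). The carcinomas were 6 Met, 3 MetTrp53 and 3 Trp53 tumours. By pathology they were 4 adenocarcinomas, 3 poorly differentiated adenocarcinomas, 3 solid nodular carcinomas, 1 scirrhous adenocarcinoma and 1 adenosquamous tumour. In MMTV-Met mice the mouse mammary tumour virus promoter drives a Met transgene, a receptor tyrosine kinase. The series design adds Cre to both genotypes with the conditional Trp53 allele, which encodes p53, and does not name the promoter of Cre. Parity also differed: 4 spindloid tumours came from nulliparous and 2 from multiparous mice, against 2 nulliparous and 7 multiparous among the carcinomas, and it was not stated for 1 spindloid tumour and 3 carcinomas. Ages are not given in the labels. Left out were 3 intermediate tumours, 1 tumour without a stated pathology and 2 pools of normal mammary gland. Tumours are named by genotype, class and a number that runs over each class in the order of deposit.

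A miRNA is a short RNA that guides repression of messenger RNAs whose untranslated ends pair with its seed, bases 2 to 8 from its 5′ end. The miR-200 family is made by epithelial cells and represses Zeb1 and Zeb2, transcription factors that silence E-cadherin, while these factors in turn repress the family's genes. Loss of the family is a known feature of the epithelial-mesenchymal transition, and spindle-cell mammary tumours are known for a mesenchymal appearance. The study's title names features of claudin-low breast cancer, a human subtype with low epithelial junction genes, so the comparison asks which miRNAs set spindloid tumours apart from carcinomas.

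The sequences of the miRNAs that carry the main differences are shown here because family members share a seed and so a set of possible targets. They are the mature RNAs in RefSeq (GRCm38.p6), 5′ to 3′, with the seed in capitals. A RefSeq sequence was matched for 16 of the 17 miRNAs that differed, and miR-199b-5p is given by name only. The first lines are the miR-200 family, in which 3 members share the seed AAUACUG and 2 share the seed AACACUG.
miR-200b-3p: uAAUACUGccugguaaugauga
miR-200c-3p: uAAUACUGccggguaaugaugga
miR-429-3p: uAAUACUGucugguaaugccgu
miR-200a-3p: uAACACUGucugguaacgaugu
miR-141-3p: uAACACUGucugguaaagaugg
The miR-183 cluster and miR-205-5p, also epithelial miRNAs, each have a seed of their own.
miR-183-5p: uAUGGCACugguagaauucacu
miR-96-5p: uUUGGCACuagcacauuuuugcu
miR-182-5p: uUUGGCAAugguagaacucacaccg
miR-205-5p: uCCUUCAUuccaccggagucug
Among the miRNAs that were higher in spindloid tumours, miR-221-3p and miR-222-3p share the seed GCUACAU.
miR-221-3p: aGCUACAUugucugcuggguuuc
miR-222-3p: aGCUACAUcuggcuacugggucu

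These miRNAs lie in a few short stretches of the genome (GRCm38.p6, RefSeq). The hairpins of miR-200b, miR-200a and miR-429 span 1846 bases on the minus strand, chr4:156053905-156055750, and those of miR-200c and miR-141 span 477 bases on the minus strand, chr6:124717914-124718390. The hairpins of miR-183, miR-96 and miR-182 lie within 3820 bases, chr6:30165918-30169737, also on the minus strand. Those of miR-221 and miR-222 lie within 678 bases on the minus strand, chrX:19146294-19146971.

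A level here is the log2 of a miRNA's scaled array signal, so 1 unit is a 2-fold difference, and 3.54 is the lowest possible level, the floor. Levels of different miRNAs are not compared with each other, since probes differ in brightness. The arrays of the 19 tumours detected 182 to 277 of 1122 mouse miRNAs. The median was 241 miRNAs in spindloid tumours and 235.5 in carcinomas. The intensity used for scaling had a 2.65-fold range over the tumours, with 0 saturated spots, and the number of arrays limits the precision. Detection on at least 7 of the 19 arrays, the size of the smaller class, left 257 miRNAs to test. Nothing in the labels says that the tumours are from separate animals. Trp53 spindloid 7 and Trp53 carcinoma 5 carry the same number in their titles, and so do Trp53 carcinomas 2 and 4. The p-values therefore measure the spread between these samples, which may in part lie within an animal. Trp53 carcinoma 5 also had spindloid levels in most miRNAs that differed, against its label, and results are given with and without it where that changes a call. Results without it are a description only, since it was singled out by its values.

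Spindloid tumours had far less of 5 miR-200 family members, the miR-183 cluster and miR-205-5p, and more of miR-221-3p, miR-222-3p, miR-199b-5p, miR-31-3p and miR-350-3p. With genotype as a covariate, limma called 17 of 257 miRNAs (6.61 percent) at an adjusted p under 0.05. Of these, 12 were lower in spindloid tumours (4.67 percent of the miRNAs tested) and 5 were higher (1.95 percent). Carcinomas alone could meet the filter of 7 arrays with 7 of 12, whereas spindloid tumours alone needed all 7. The filter thus favours lower calls, and the split by direction is a description only. Over the 131 miRNAs detected on all 19 arrays, 3 were called lower and 2 higher. The median difference over all 257 was -0.06 on the log2 scale, with 106 above 0 and 149 below it. In bulk tissue, fewer cells of a type and less RNA per cell cannot be told apart. The 17 differences had the same sign under each of the 43 other settings tried, wherever the miRNA was tested, and within all 5 slides. These settings reuse the arrays from which the 17 were called, so the shared sign is a description and no separate support. The slide values are plain differences of means without genotype. On slide 5 they set MetTrp53 and Trp53 spindloid tumours against 1 Met carcinoma. The calls lean on 1 tumour, the only spindloid Met tumour: without it 3 miRNAs were called, all lower, at a median of 0.89 times the change. With all Met tumours left out, 6 spindloid tumours against 6 carcinomas, limma called 0, with 30 of 257 at an unadjusted p under 0.05, again at 0.89 times the change. The estimates are the same as without the spindloid Met tumour alone, since Met carcinomas by themselves hold no comparison of the classes. Only the spread and the number of tumours differ, so these settings are not separate checks of the estimates.

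The miR-200 family fell most. Levels of miR-200b-3p in spindloid tumours were 3.54 in the Met tumour, 3.54, 3.67 and 4.69 in the MetTrp53 tumours and 3.54, 4.83 and 3.54 in the Trp53 tumours. In carcinomas they ran from 3.97 to 10.04, with a median of 8.99, and 11 of 12 carcinomas lay above every spindloid tumour. The exception was Trp53 carcinoma 5 at 3.97. The means were 3.91 ± 0.59 in spindloid tumours and 8.52 ± 1.69 in carcinomas (SD, n = 7 and 12). With genotype as a covariate the difference was -4.24 (SE 0.65, limma adjusted p = 0.000891), an 18.9-fold lower level in spindloid tumours. Both normal gland pools, at 7.14 and 7.09, lay above every spindloid tumour and within the carcinoma range.

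Its neighbours on chromosome 4 followed. The highest spindloid level of miR-429-3p was 4.53 and 5 of the 7 spindloid tumours lay at the floor. Carcinomas ran from 3.54 to 9.51 with a median of 8.41, and the difference was -3.90 (SE 0.62, limma adjusted p = 0.000891). For miR-200a-3p the spindloid levels ran from 3.54 to 4.27 with a median of 3.54, against 3.54 to 8.80 with a median of 7.35 in carcinomas. Its difference was -2.85 (SE 0.56, limma adjusted p = 0.00454). In both miRNAs the only carcinoma inside the spindloid range was Trp53 carcinoma 5, at 3.54.

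The pair on chromosome 6 was lower as well. In spindloid tumours miR-200c-3p was at 3.54 in the Met tumour, 3.54, 3.54 and 4.65 in the MetTrp53 tumours and 4.92, 3.54 and 3.54 in the Trp53 tumours. Carcinomas ran from 3.71 to 11.05 with a median of 9.50, and 10 of 12 lay above every spindloid tumour. The difference was -4.08 (SE 0.81, limma adjusted p = 0.00454), 17-fold lower. For miR-141-3p only MetTrp53 spindloid 6, at 3.98, was above the floor, against a median of 7.55 and a highest level of 8.80 in carcinomas. Its difference was -2.75 (SE 0.63, limma adjusted p = 0.0115). Carcinomas 2 and 5 of the Trp53 genotype overlapped the spindloid range in both miRNAs. Since most spindloid levels of the family lie at the floor, these differences understate the ratio of signals where the true level is lower still.

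Counting the passenger arms, the family list held 9 miRNAs, of which 7 were tested and 5 fell, and the median of the 7 was -2.85, beside -0.06 over all miRNAs tested. At most 4 of 7 spindloid tumours detected any of the 7, which passed the detection filter mainly through the carcinomas, so this count and median are a description only. The other 2 tested were miR-200b-5p and miR-141-5p. Neither was detected in any spindloid tumour, so they could hardly have come out higher there. By plain class means, without genotype, the level of miR-200b-5p was at least 1.05-fold lower in spindloid tumours. With genotype as a covariate it was not called (limma adjusted p = 0.357). For miR-141-5p no fold can be given and it was not called (limma adjusted p = 0.778). Both remaining members, miR-200a-5p and miR-200c-5p, were detected in too few tumours to be tested.

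**Figure D1:**
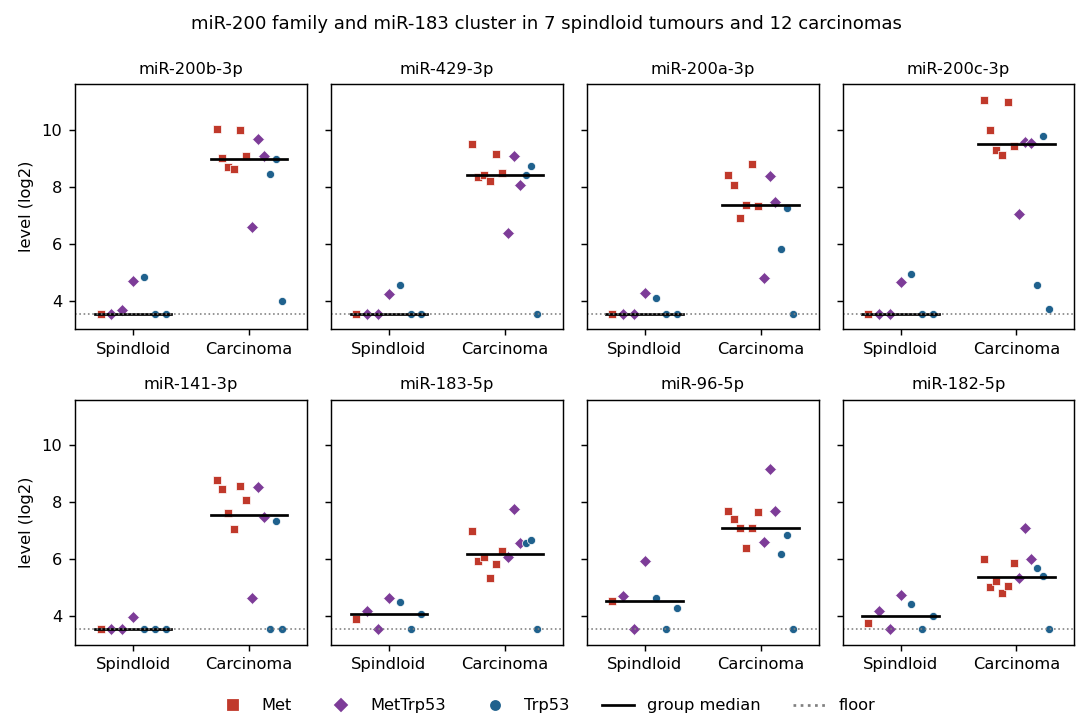
Level (log2) of the miR-200 family and the miR-183 cluster in each of 7 spindloid tumours (left in each panel) and 12 carcinomas (right). Each point is 1 tumour, with its genotype given by colour and shape, the bar is the group median and the dotted line the floor at 3.54. The highest spindloid point is 4.92 in the miR-200 panels and 5.95 in the miR-183 cluster (miR-96-5p), and the lowest carcinoma point in each panel is Trp53 carcinoma 5, which in miR-141-3p shares the floor with Trp53 carcinoma 2.

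All 3 members of the miR-183 cluster, which is made as 1 transcript in sensory and epithelial cells, fell in spindloid tumours, with a median difference of -2.14. Levels of miR-183-5p ran from 3.54 to 4.62 in spindloid tumours with a median of 4.06, and from 3.54 to 7.75 in carcinomas with a median of 6.19. The difference was -2.14 (SE 0.42, limma adjusted p = 0.00454), and 11 of 12 carcinomas lay above every spindloid tumour. The cluster mate miR-96-5p ran from 3.54 to 5.95 in spindloid tumours and from 3.55 to 9.16 in carcinomas, with medians of 4.52 and 7.10. It differed by -2.33 (SE 0.50, limma adjusted p = 0.00898). For miR-182-5p the medians were 4.01 in spindloid tumours and 5.38 in carcinomas, and the difference was -1.47 (SE 0.35, limma adjusted p = 0.0117). In all 3 the carcinoma inside the spindloid range was Trp53 carcinoma 5, at 3.54, 3.55 and 3.54. Normal gland lay low for miR-183-5p too, at 4.49 and 3.87.

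Levels of miR-205-5p, a miRNA of basal and squamous epithelium that also targets the Zeb factors, were 3.70 in the Met spindloid tumour, 3.54, 3.54 and 4.85 in the MetTrp53 ones and 4.28, 3.54 and 3.54 in the Trp53 ones. In carcinomas they ran from 3.54 to 9.16 with a median of 7.31, and the adenosquamous tumour had the highest level. The difference was -2.84 (SE 0.72, limma adjusted p = 0.0173), and 10 of 12 carcinomas lay above every spindloid tumour. Trp53 carcinomas 2 and 5 were at the floor. The other member of that list, miR-203-3p of stratified epithelium, was not detected in any spindloid tumour. By plain class means, without genotype, it was at least 1.35-fold lower there. With genotype as a covariate it was not called (limma adjusted p = 0.363). Its levels were 3.78 to 5.34 in Met carcinomas. In the other carcinomas they were 5.22 in MetTrp53 carcinoma 7, 3.69 in Trp53 carcinoma 2 and 3.54 in the rest. So 1 of the 2 members of the basal and squamous list was called, beside 17 of 257 over all miRNAs tested. Detection was in 3 of 7 spindloid tumours and 10 of 12 carcinomas for miR-205-5p, and in 0 of 7 and 7 of 12 for miR-203-3p. Both thus passed the detection filter mainly through the carcinomas, so this count is a description only.

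Another 3 miRNAs fell that were detected in all 19 tumours, so their sizes do not rest on the floor. Spindloid levels of miR-148a-3p, abundant in mammary epithelium and milk, ran from 4.76 to 7.07 with a median of 6.0, against 5.33 to 10.54 with a median of 9.05 in carcinomas. It differed by -2.03 (SE 0.49, limma adjusted p = 0.0135), and 2 carcinomas, both Trp53, lay within the spindloid range. For miR-193b-3p, which is induced in brown fat, spindloid levels ran from 4.63 to 7.17 with a median of 6.52, and carcinoma levels from 6.56 to 9.27 with a median of 8.35. The difference was -1.93 (SE 0.46, limma adjusted p = 0.0117), and 10 of 12 carcinomas lay above every spindloid tumour. It was the 1 called member of 3 in the adipose list.

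For miR-30a-5p the spindloid levels were 6.52 in the Met tumour, 5.64, 7.02 and 6.30 in the MetTrp53 tumours and 6.59, 6.41 and 5.58 in the Trp53 tumours. Carcinomas ran from 6.91 to 10.40 with a median of 8.39, so that only MetTrp53 spindloid 4 reached the carcinoma range. The difference was -1.74 (SE 0.39, limma adjusted p = 0.00916). Of the 7 tested members of the miR-30 family, miR-30a-5p was the 1 that passed, and the 5 detected in all 19 tumours had values from -1.74 to -0.39. The other arm of its hairpin, miR-30a-3p, did not overlap between the classes, at 3.54 to 3.69 in spindloid tumours and 3.89 to 7.28 in carcinomas. It was detected in 1 of 7 spindloid tumours and 12 of 12 carcinomas, so it passed the detection filter through the carcinomas and could hardly have come out higher in spindloid tumours. It had a difference of -1.22 (SE 0.39, limma adjusted p = 0.0753) and was not called. Over all miRNAs tested, levels did not overlap for 2 of 257 (0.778 percent), miR-30a-3p and miR-350-3p, which is described below.

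Among the 5 miRNAs that were higher, miR-221-3p and miR-222-3p, which repress the cell cycle inhibitor Cdkn1b, are made together. Spindloid levels of miR-221-3p were 7.23 in the Met tumour, 7.06, 8.24 and 7.58 in the MetTrp53 tumours and 8.29, 8.99 and 8.81 in the Trp53 tumours. Carcinomas ran from 3.83 to 8.18 with a median of 5.27, and 10 of 12 lay below every spindloid tumour. The difference was 2.01 (SE 0.44, limma adjusted p = 0.00916), 4.03-fold higher. The 2 carcinomas inside the spindloid range were MetTrp53 carcinoma 1 at 8.18 and Trp53 carcinoma 5 at 7.73. For miR-222-3p the spindloid range was 5.72 to 7.81 with a median of 6.66, against 3.54 to 7.29 with a median of 4.08 in carcinomas. The same 2 carcinomas lay inside that range, and the difference was 1.75 (SE 0.42, limma adjusted p = 0.0117). Both normal pools were lower than every spindloid tumour for both miRNAs, at 4.40 and 5.27 for miR-221-3p.

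The arm miR-31-3p was detected in all 7 spindloid tumours and in 7 of 12 carcinomas. It ran from 5.26 to 7.58 in spindloid tumours with a median of 5.94, and from 3.54 to 7.03 in carcinomas with a median of 3.55. The difference was 1.53 (SE 0.42, limma adjusted p = 0.0322). The guide arm of the same hairpin, miR-31-5p, ran from 8.48 to 10.16 in spindloid tumours, a narrow range, and from 3.54 to 10.71 in carcinomas, with medians of 9.29 and 6.22. Its difference was 2.35 (SE 0.80, limma adjusted p = 0.0824) and was not called with all 19 tumours. Without Trp53 carcinoma 5, whose level was 9.55, the adjusted p was 0.0171. MetTrp53 carcinoma 1, at 10.71, was the only carcinoma above the spindloid range. In the tumour-associated list 3 of the 7 tested members passed, beside 17 of 257 over all miRNAs tested. Of the 3, miR-221-3p and miR-222-3p are made together and do not count separately. The 2 members of the list detected in all 19 tumours had values of 0.23 and 1.02. The value of miR-21-5p, a miRNA raised in many cancers, was 1.02 (SE 0.43, limma adjusted p = 0.199).

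Levels of the mesenchymal miR-199b-5p ran from 7.30 to 9.80 in spindloid tumours with a median of 9.02, and from 4.16 to 8.05 in carcinomas with a median of 6.40. It differed by 2.05 (SE 0.51, limma adjusted p = 0.0144), and the ranges overlapped. Its normal gland levels, 7.85 and 8.91, lay within the spindloid range. It was the 1 called member of 4 tested in the list of miR-199 and miR-214, which are made by mesenchymal cells. All 4 had values above 0, with a median of 1.46, beside 106 of 257 above 0 over all miRNAs tested. Those not called were miR-199a-3p at 1.52 (SE 0.51, limma adjusted p = 0.0824), miR-199a-5p at 1.40 (SE 0.48, limma adjusted p = 0.0884) and miR-214-3p at 1.19 (SE 0.53, limma adjusted p = 0.233).

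For miR-350-3p all 7 spindloid tumours, at 6.34 to 7.23, lay above all 12 carcinomas, at 4.0 to 6.34, but the gap between the classes was only 0.009. The medians were 6.43 in spindloid tumours and 5.39 in carcinomas. The difference was 1.07 (SE 0.27, limma adjusted p = 0.0177), 2.09-fold. Here the highest carcinoma was MetTrp53 carcinoma 1.

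**Figure D2:**
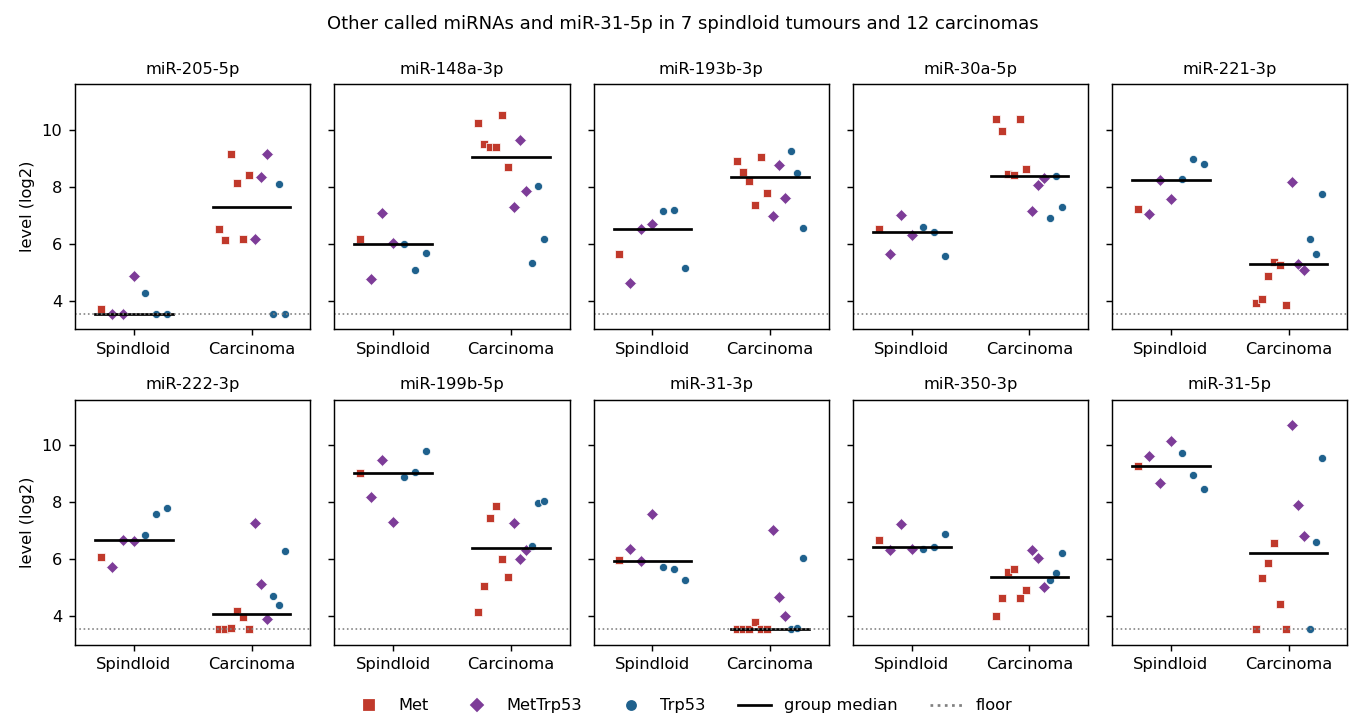
Level (log2) of the other called miRNAs and of miR-31-5p in 7 spindloid tumours (left in each panel) and 12 carcinomas (right). Points, bars and the dotted floor at 3.54 are as in the plot of the miR-200 family. In miR-31-5p the spindloid points lie between 8.48 and 10.16, while the carcinoma points spread from 3.54 to 10.71, and in miR-350-3p the classes meet at 6.34 without overlap.

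Other lists had few or no calls. No member was called among the 10 tested of miR-17-92 and its paralogs, which accompany proliferation, although the 9 detected in all 19 tumours had values from -0.72 to -0.05. The largest was miR-92a-3p, at 7.14 to 8.61 in spindloid tumours and 8.16 to 9.28 in carcinomas, a difference of -0.72 (SE 0.22, limma adjusted p = 0.0527). The let-7 family, which represses growth genes, had 0 of 9 called and a median of -0.03. Its lowest members were let-7b-5p at -0.86 (SE 0.27, limma adjusted p = 0.0689) and let-7c-5p at -0.78 (SE 0.25, limma adjusted p = 0.0689). In the list of miR-146a and miR-146b, which damp inflammatory signalling, miR-146b-5p was at 4.73 to 6.07 in spindloid tumours and 4.65 to 10.36 in carcinomas. Its difference of -1.81 (SE 0.56) had a limma adjusted p of 0.0685, or 0.0137 without Trp53 carcinoma 5. The p53-induced list had 0 of 4 called with a median of 0.10, and the smooth muscle miRNAs miR-143 and miR-145 had 0 of 2 with a median of -0.03.

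The remaining families listed gave 1 call. Without a call were the Hox-cluster miR-10 and miR-196 (0 of 2, median 0.62), miR-99, miR-100 and miR-125 (0 of 5, median 0.35), miR-29 (0 of 3, median 0.19), miR-15 and miR-16 (0 of 5, median -0.06) and miR-322 and miR-503 (0 of 2, median 0.03). Also without a call were miR-23, miR-24 and miR-27 (0 of 5, median 0.11), miR-181 (0 of 4, median -0.42) and the imprinted Dlk1-Dio3 cluster (0 of 7). In that cluster 5 of the 7 tested members were detected in 6 of 7 spindloid tumours and in 1 to 5 of 12 carcinomas, so they passed the detection filter mainly through the spindloid tumours, and 18 further members on the array were not tested. The list of miR-148 and miR-152 had miR-148a-3p as its 1 call of 3, with a median of -0.04.

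Markers of other cells moved with the classes in part. The summed level of 4 leukocyte miRNAs ran from 9.35 to 10.48 in spindloid tumours and from 6.95 to 10.51 in carcinomas, and 0 of 3 tested were called. Its myeloid member miR-223-3p had a value of 1.13 (SE 0.46, limma adjusted p = 0.188). The summed level of 2 endothelial miRNAs ran from 8.94 to 10.25 in spindloid tumours and from 7.51 to 10.40 in carcinomas, with 0 of 1 called, miR-126-3p at 0.85 (SE 0.37, limma adjusted p = 0.212). The 3 adipose miRNAs summed to 6.95 to 8.25 in spindloid tumours and 8.18 to 9.72 in carcinomas. That sum includes miR-193b-3p, itself among the 17 called, which had the list's lowest value, -1.93. The median of the list was -0.38 and its highest value -0.02. The 4 neural miRNAs summed to 5.57 to 6.08 in spindloid tumours and 5.66 to 7.71 in carcinomas, with 0 of 2 called and the defining miR-124-3p not detected. Skeletal muscle miRNAs were detected in 2 of 7 spindloid tumours and 4 of 12 carcinomas, too few to be tested. Their miR-133a-3p levels were 8.96 in Trp53 spindloid 1 and 4.84 in Met spindloid 3, against 8.04 in Trp53 carcinoma 5, 7.69 in Met carcinoma 8, 8.87 in MetTrp53 carcinoma 9 and 4.06 in Met carcinoma 10. In the erythroid list, miR-144-3p was detected in 1 of 7 spindloid tumours and 0 of 12 carcinomas. Its member miR-451a is on the array under the name miR-451 and was not matched to the list. Levels of miR-451 ran from 8.57 to 10.85 in spindloid tumours and from 7.88 to 11.74 in carcinomas, and it was not called. The liver member was detected in 0 of 7 spindloid tumours and 1 of 12 carcinomas. The part of these cells in the 17 differences was not tested.

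Within single genotypes the 17 differences kept their signs, but none passed. In the 3 genotypes limma called 0 of 257 each (0.0 percent), with 18 at an unadjusted p under 0.05 in MetTrp53, 10 in Trp53 and 32 in Met, where 1 spindloid tumour was assumed to vary like the rest. For miR-200b-3p the difference was -4.48 (SE 1.03, limma adjusted p = 0.0712) in 3 against 3 MetTrp53 tumours. It was -3.16 (SE 1.03, limma adjusted p = 0.542) in 3 against 3 Trp53 tumours and -5.71 (SE 1.37, limma adjusted p = 0.0919) in 1 against 6 Met tumours. For miR-200c-3p the values were -4.81 (SE 1.17) in MetTrp53, -2.0 (SE 1.17) in Trp53 and -6.44 (SE 1.55) in Met. For miR-221-3p they were 1.45 (SE 0.73) in MetTrp53, 2.20 (SE 0.73) in Trp53 and 2.68 (SE 0.96) in Met.

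The difference between the MetTrp53 and the Trp53 effect was tested itself, and limma called 0 of 257 (0.0 percent), with 3 at an unadjusted p under 0.05. It was -1.33 for miR-200b-3p (95 percent interval -4.43 to 1.78) and -2.81 for miR-200c-3p (-6.33 to 0.71), both with a limma adjusted p of 0.991. Without Trp53 carcinoma 5 they were 0.25 (-1.91 to 2.42) and -1.66 (-5.03 to 1.71), both with a limma adjusted p of 0.982, so the sign for miR-200b-3p rests on that tumour. These intervals are wide, so a difference of several-fold between the genotypes was not detectable with 3 tumours in each cell.

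**Figure D3:**
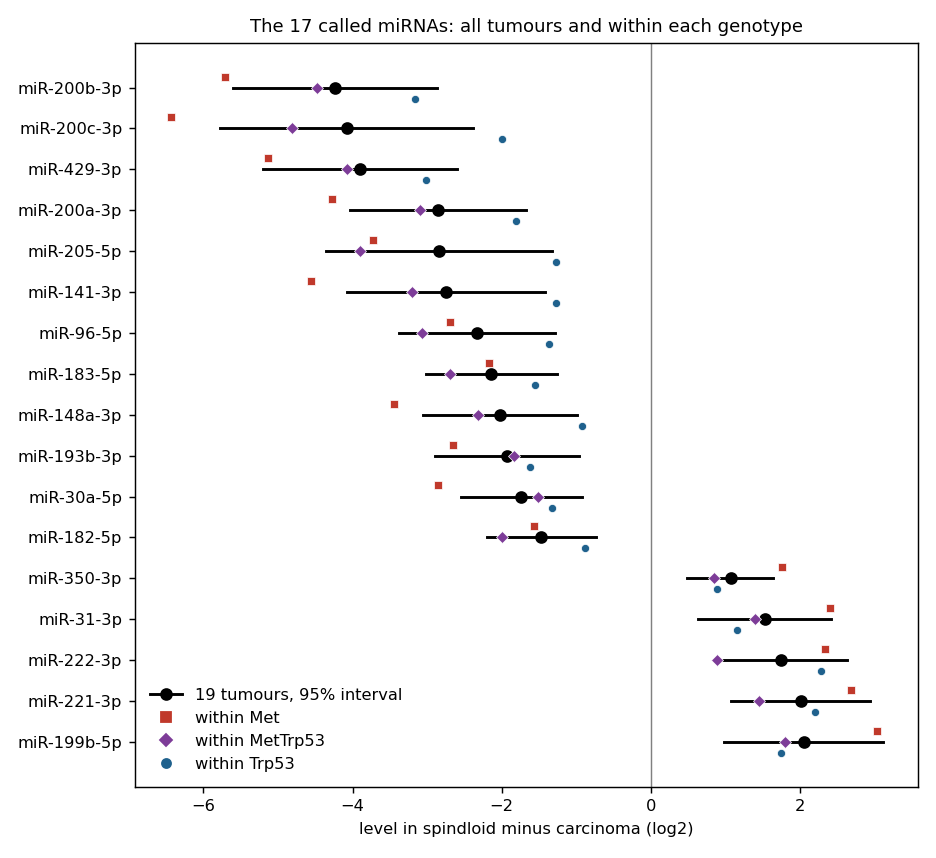
Level in spindloid tumours minus level in carcinomas (log2) for the 17 called miRNAs. Black points and lines are the estimate over 19 tumours with genotype as a covariate and its 95 percent interval, and coloured points are the differences within Met (1 against 6), MetTrp53 (3 against 3) and Trp53 (3 against 3). The points of each row lie on one side of 0.

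Some carcinomas had spindloid levels. Trp53 carcinoma 5, labelled adenocarcinoma, lay within or below the spindloid range in 11 of the 12 lower miRNAs and within or above it in 4 of the 5 higher ones. Over the 257 miRNAs, which are not independent replicates, its closest tumour was Trp53 spindloid 1 (r = 0.964). That was not particular to it. MetTrp53 carcinoma 1 was also closest to Trp53 spindloid 1 (r = 0.963), and Trp53 carcinoma 2 to MetTrp53 spindloid 2 (r = 0.882). Without Trp53 carcinoma 5, 21 miRNAs were called, among them all 17, with limma adjusted p-values of the 17 from 1.13e-07 to 0.0124 and a median of 1.14 times the change. The other 4 were miR-31-5p and miR-146b-5p, described above, miR-21-3p and miR-224-5p. The difference was 0.46 (SE 0.12, limma adjusted p = 0.0219) for miR-21-3p and 0.65 (SE 0.18, limma adjusted p = 0.0276) for miR-224-5p. With all 19 tumours their limma adjusted p-values were 0.263 and 0.157. Within Trp53 4 were then called, miR-200b-3p at -4.73 (SE 0.76, limma adjusted p = 0.00218), miR-429-3p at -4.69 (SE 0.62), miR-183-5p at -2.59 (SE 0.51) and miR-222-3p at 2.85 (SE 0.67). Within MetTrp53 7 were then called and within Met 4, as the spread shared by the genotypes was smaller. Those in MetTrp53 were 4 of the miR-200 family and all 3 of the miR-183 cluster, and those in Met were the same 4 miR-200 members, miR-200b-3p, miR-429-3p, miR-200a-3p and miR-200c-3p. Trp53 carcinoma 5 was singled out after its values were seen. Since these lay in the spindloid range, leaving it out was bound to enlarge most of the differences. The smaller p-values and the added calls without it follow from that choice and are a description only.

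Trp53 carcinoma 2, also an adenocarcinoma, had the 2 miR-200 clusters apart. Its chromosome 4 members were at carcinoma levels, 8.44 for miR-200b-3p and 8.41 for miR-429-3p, with miR-200a-3p at 5.80. Its chromosome 6 members were at 4.53 for miR-200c-3p and at the floor for miR-141-3p, within the spindloid range. It lay within or below that range in 5 of the 12 lower miRNAs and in 0 of the 5 higher ones. MetTrp53 carcinoma 1 instead lay within the spindloid range in 1 of the 12 lower miRNAs and within or above it in 3 of the 5 higher ones, with miR-200b-3p at 6.57 and miR-141-3p at 4.64. The highest miR-200 levels among spindloid tumours were those of MetTrp53 spindloid 6 and Trp53 spindloid 1. The mean of the 5 family members was 4.36 and 4.38 in these 2, against 3.54 to 3.57 in the other 5 spindloid tumours and 3.66 to 9.57 in carcinomas.

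**Figure D4:**
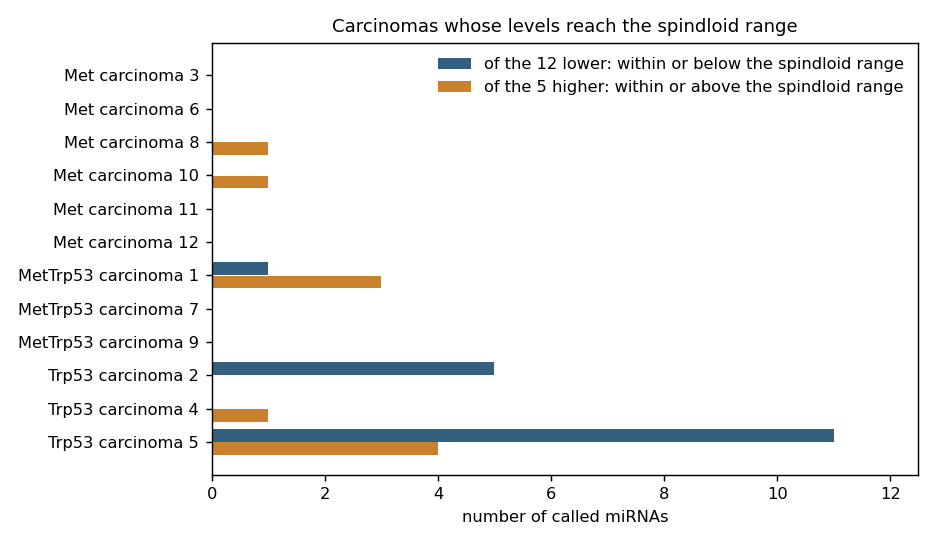
Number of called miRNAs (horizontal axis) for which each of the 12 carcinomas (rows) lay within or past the range of the 7 spindloid tumours, for the 12 lower (upper bar of a row) and the 5 higher miRNAs (lower bar). Trp53 carcinoma 5 reaches 11 and 4, Trp53 carcinoma 2 reaches 5 and 0, MetTrp53 carcinoma 1 reaches 1 and 3, and the others reach 0 of the lower and at most 1 of the higher miRNAs.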

How the data were processed

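Each deposited scanner file gives the intensity of 49324 spots. Per the file headers, the software was Agilent Feature Extraction 10.7.3.1, which subtracts background. A second file of the authors holds log2 values per spot. For it the submitters' processing notes name RMA without a version, its column medians were 1.72 to 1.91 and its centring is not known. Spots marked as outliers were left out, spots of a probe averaged, and the processed signal divided by each array's 75th percentile over the 221 probes detected on all 25 arrays. Values under 0.0212 of the percentile were raised to it, log2 taken and a constant added, and probes of a miRNA averaged. A probe counted as detected if at least 0.5 of its spots were well above background. Levels were compared by limma 3.58.1 (lmFit and eBayes, R 4.3.3) with genotype as a covariate, and within genotypes in a model with a mean per genotype and class, with Benjamini-Hochberg adjustment over 257 miRNAs. "At least" folds are taken from plain class means, without the genotype covariate, against the lowest signal well above background. The fit was also run on simulated levels with known changes. These had less spread than the tumours, no genotype effect and changed miRNAs lifted away from the floor. That run does not show how the fit behaves near the floor or with the real spread. The files used here hold no mean signal column, so normexp was run on median signals with an offset of 50. The miRNAs named are the 12 largest changes in each direction past the threshold and list members, and the lists and tumours were chosen with earlier results of these data known. The alternatives changed scaling, floor, detection filter, probe summary, batch, covariates and tumours, and each tumour was left out in turn.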

Additional observations from a re-analysis of the deposited data

Results flagged for a closer look

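Among the 7 spindloid tumours, MetTrp53 spindloid 6 stood apart in miR-141-3p, at 3.98 while the other 6 lay at the floor of 3.54. In miR-30a-3p, MetTrp53 spindloid 4 stood apart at 3.69, with the other 6 at 3.54. Both were marked by Dixon's test for 1 value far from the rest, over 35 miRNAs examined. Chance marks about 1 in 20 where the values are not tied. Both lie close to the floor, where the other 6 tumours have no spread. With those tied, any value above the floor is marked, so that rate does not apply and the marks are a description only.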

How the results depend on the processing

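Counts beside the 17 called were 26 with the authors' table (median of all miRNAs moved by 0.17), 19 with normexp (moved by -0.16), 21 with quantile normalisation (moved by 0.12), 37 without the genotype covariate, 9 with only adenocarcinomas and poorly differentiated adenocarcinomas, 5 over the 131 miRNAs detected on all 19 arrays and 0 without Met tumours. With no detection filter, 413 miRNAs with any spread were tested and 16 called. The genotype covariate and the choice of tumours change the number of tumours or terms, and fewer miRNAs were tested under the stricter filter; the cause of the other changes was not tested. Leaving out 1 tumour at a time gave 3 to 22 over all genotypes, 0 to 11 within MetTrp53, 0 to 4 within Trp53, 0 to 6 within Met and 0 to 0 for the difference between MetTrp53 and Trp53. The 11 within MetTrp53 came without MetTrp53 carcinoma 1. Within MetTrp53, 9 were called with normexp and 9 with tumours of shared title numbers left out. Within Met the counts were 9 with normexp, 5 with the summed signal, 5 with the brightest probe, 3 with a floor 4 times lower and 5 with shared title numbers left out. Of the 17, 22 of 323 values with 1 tumour left out and 42 of 396 values under the other settings lost the call, and 0 turned sign. Of the 5 higher, miR-31-3p lost it most often, in 16 of 42 settings, with adjusted p up to 0.414. With 4 tumours of shared title numbers left out 13 were called, all lower, of which 12 are among the 17. Slide as a block gave 15 and lost miR-31-3p and miR-350-3p, scan date gave 17, and parity gave 23 in the 15 tumours that state it, against 20 in these tumours without the term, a setting chosen after seeing the data, as was the scanner software's own detection call (17). No paired analysis was possible because replicate numbers were given in the order of deposit and pair no tumours; with the title number, which 2 pairs of tumours share, as a random block 17 were called, all among the 17.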

Other observations

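The tumour without a stated pathology, a MetTrp53 tumour, lay within or below the spindloid range in 12 of the 12 lower miRNAs and within or above it in 5 of the 5 higher ones, with miR-200b-3p at 3.78, miR-200c-3p at 3.70 and miR-221-3p at 7.98. The 3 intermediate tumours lay within or below the range in 12, 11 and 12 of the lower miRNAs and within or above it in 5, 4 and 4 of the higher ones. Their miR-205-5p levels were 3.54 in Trp53 intermediate 1, 5.25 in MetTrp53 intermediate 2 and 3.54 in Trp53 intermediate 3. The normal gland pools lay within or below the range in 2 and 3 of the 12 lower miRNAs and within or above it in 1 of the 5 higher ones each.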
